A study of Mus musculus with 9 samples.

Results

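The forebrain of 5 wild-type (WT) mouse embryos at E16 to E17 is described here as a baseline transcriptome, from the 5 columns of raw counts that the labels name WT5, WT15, WT16, WT41 and WT43, out of 9 embryos in all. The members were chosen by genotype alone, and no genotypes were compared. Each WT embryo was female and carried both intact copies of Npas3 (Npas3+/+, written Npas+/+ in the labels), on the C57BL/6J background, as a littermate from crosses with heterozygous parents and with no transgene or treatment. Which embryos shared a litter, and which day of the E16 to E17 interval each one had reached, were not given, so the spread between embryos holds both along with the dissection. The tissue was bulk forebrain, whereas the labels also carry astrocytes as the cell type, so the label was checked against marker genes.

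Poly(A) RNA was sequenced and counted per gene. The total per embryo was 42640218 counts in WT5, 44565685 in WT15, 45172472 in WT16, 62830060 in WT41 and 45845845 in WT43. A level is given as CPM (counts per 1000000 counts assigned to genes in that embryo) when 1 gene is compared between embryos. It is given as TPM (counts divided by the exonic length of the gene and scaled to the same total in each embryo) when genes are compared with each other. A level of 3 counts, taken as the smallest that could be told from 0, corresponded to 0.0477 CPM in WT41 and up to 0.0704 CPM in WT5. Errors are SDs over the 5 embryos unless another n is given.

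At this age the mouse forebrain is building the cerebral cortex. Radial glia line the ventricles and divide, intermediate progenitors arise from them, and newborn excitatory neurons migrate outward, while inhibitory neurons born in the ventral forebrain migrate in from below. Astrocytes and oligodendrocytes are only beginning to form, and the ventricles contain the choroid plexus, an epithelium that secretes cerebrospinal fluid and makes transthyretin (Ttr).

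Some libraries stood apart from the others. WT5 and WT43 had almost no choroid plexus transcripts, with summed levels of 65.8 and 52.2 CPM over 18 marker genes against 2594 to 3183 CPM in WT15, WT16 and WT41. WT16 was lower in long genes and higher in short ones, and WT5 was highest in the sum of the forebrain regional identity list. The female label was met by high Xist, the RNA that coats the inactive X chromosome, in every embryo (745 to 1505 CPM). The Y-linked Eif2s3y nevertheless had 0.740 CPM in WT15 and 0.567 CPM in WT43 and no count in WT5, WT16 and WT41. Ddx3y, Kdm5d and Uty also passed 3 counts in WT15 and WT43, and the origin of these counts was not tested.

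The table lists 55401 genes. No embryo had a count for 24019 of them, 21678 had at least 1 count in every embryo, and 13639 reached a CPM of 1 in every embryo. Of the last, 12585 were protein coding, and protein-coding genes took 98.1% ± 0.109 of the counts. The levels were spread over many genes. The 10 genes with the most counts held 3.89% of all counts, 1331 genes were needed to reach 50% and 6465 to reach 90%. By mean TPM, 86 genes stood at 1000 or more, 2039 at 100 or more, 10282 at 10 or more and 16099 at 1 or more. Among the genes at a CPM of 1 in every embryo, the median of the mean TPM was 27.1, and 5% of them were above 221 TPM.

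The highest levels belonged to mitochondrial respiratory chain transcripts, to translation and to the tubulin and actin cytoskeleton of growing neurons. mt-Co1, a subunit of cytochrome c oxidase, was first in every embryo, with 15983 TPM in WT5, 19095 in WT15, 16565 in WT16, 17011 in WT41 and 18526 in WT43. mt-Cytb, the cytochrome b of complex III, was second in every embryo at 13705 ± 1202 TPM. Eef1a1 (ENSMUSG00000037742, chr9:78478449-78489151, minus strand), the factor that delivers aminoacyl-tRNA to the ribosome, followed at 11254 ± 638 TPM, and its 7077 ± 527 CPM were the most counts of any gene by the mean. mt-Nd1 of complex I, at 10191 ± 1184 TPM, was next and exceeded Eef1a1 in WT15. Eef1a1 shared 59.2% and mt-Co1 51.1% of the 50-base words of their longest transcripts with other annotated genes, so both levels are less certain.

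Below these came the neuronal tubulins. Tubb2b, a beta-tubulin of migrating neurons (ENSMUSG00000045136, chr13:34126748-34130466, minus strand), had 5701 TPM in WT5, 6079 in WT15, 6462 in WT16, 6565 in WT41 and 6690 in WT43. Tuba1a, the alpha-tubulin of newborn neurons, had 4736 ± 532 TPM, the widely used Tubb5 had 4387 ± 252 TPM and the neuron-specific Tubb3 had 3702 ± 121 TPM. Tmsb4x, which binds monomeric actin, had 5386 ± 609 TPM and beta-actin (Actb) 2728 ± 173 TPM. The growth cone protein Marcksl1 closed the 25 highest genes at 2543 ± 250 TPM.

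The imprinted gene Nnat (ENSMUSG00000067786, chr2:157560078-157562522, plus strand), which codes for neuronatin, was number 13 of the ranking. Its TPM were 5762 in WT5, 4063 in WT15, 3423 in WT16, 4896 in WT41 and 3402 in WT43, so WT5 and WT41 stood above the other 3 embryos. The remaining members of the 25 were mt-Nd2, mt-Nd5, mt-Nd4 and mt-Nd6 of complex I, the ribosomal proteins Rplp1, Rps15 and Rpl4, elongation factor Eef2, the chaperone Hsp90ab1, prothymosin alpha (Ptma), calmodulin (Calm2) and CT010467.1. The last is annotated as an rRNA gene on chromosome 17, and 73.9% of its exonic bases are overlapped by another gene. Nuclear ribosomal RNA has no poly(A) tail, and the 5165 ± 1268 TPM of this gene are reported as uncertain. mt-Rnr2 and mt-Rnr1, the mitochondrial rRNAs, had 969 ± 148 and 793 ± 108 TPM.

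**Figure D1:**
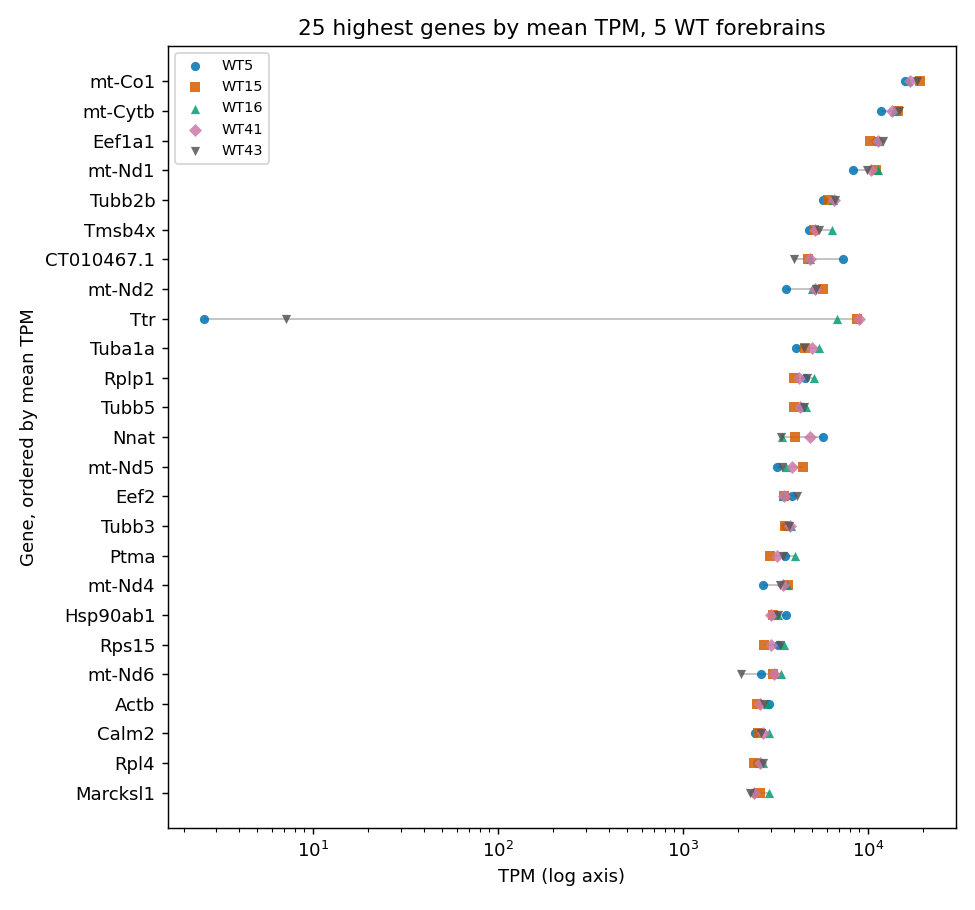
TPM (log axis) of the 25 genes with the highest mean TPM, ordered from the top, with 1 point per WT embryo and a grey line from the lowest to the highest embryo. Ttr runs from 2.57 TPM in WT5 to 8977 TPM in WT41, whereas CT010467.1, the next widest, runs from 4003 to 7339 TPM.

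The order below the first ranks was loose. Of 25 pairs of neighbours among the 26 highest genes, 4 kept their order in all 5 embryos, and in 4 the difference between the mean TPM exceeded both SDs. mt-Co1 over mt-Cytb, mt-Cytb over Eef1a1, mt-Nd1 over Tubb2b and Tubb2b over Tmsb4x were the pairs with a fixed order. From Tmsb4x downward no neighbours kept their order in every embryo. Even so, 21 genes were among the 25 highest in each embryo, and 28 genes were in that group in at least 1 embryo.

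Promoter windows of 4 of the genes that these results turn on are shown here, because the windows differ in the matches they hold. Each line holds the 60 bases before the RefSeq start of the gene (GRCm38.p6), 5′ to 3′ on the strand of the gene, with matches in capitals. The letters searched were TATAA, the core of the TATA box, CCAAT, and GGGCGG, the GC box, each on both strands. Matches of TATAA on both strands can overlap in TTATAA, and such a promoter was counted once. Eef1a1 was taken from chr9:78481725-78481784 (minus strand), Eef2 from chr10:81176571-81176630 (plus strand), Nnat from chr2:157560018-157560077 (plus strand) and the adult beta-globin Hbb-bs from chr7:103827929-103827988 (minus strand).
Eef1a1: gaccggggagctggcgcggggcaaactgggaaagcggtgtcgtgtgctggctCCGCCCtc
Eef2: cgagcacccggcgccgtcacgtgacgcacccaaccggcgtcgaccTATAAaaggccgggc
Nnat: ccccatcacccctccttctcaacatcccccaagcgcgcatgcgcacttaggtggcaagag
Hbb-bs: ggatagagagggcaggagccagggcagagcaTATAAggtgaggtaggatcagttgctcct
Eef1a1 held GGGCGG on the opposite strand, Eef2 and Hbb-bs held TATAA, and Nnat held none of the words in this window. The RefSeq starts of Eef1a1 and Hbb-bs lie inside the spans that the GENCODE M21 annotation gives these genes, so their windows are not upstream of every annotated transcript. Elements outside a window, on either side of it, were not searched, so the genes themselves may differ less than their windows.

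Over all protein-coding genes with a RefSeq promoter (16784 of 21897), 8.66% held TATAA, 14% CCAAT and 29.4% GGGCGG in the 60 bases before the start. Among the 9989 of them at a CPM of 1 or more in every WT embryo the shares were 3.89%, 16.5% and 42.1%. Among the 2877 without a count in any WT embryo they were 20.3%, 10.6% and 2.71%. GGGCGG was thus more frequent in genes detected in the forebrain and TATAA in those at 0. The 100 highest nuclear genes, of which 70 had a promoter in the table, held TATAA in 14.3%, CCAAT in 18.6% and GGGCGG in 28.6%, so TATAA had a larger share there than among detected protein-coding genes as a whole. A match is a stretch of letters and not a measured binding site.

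Grouped by function, 26 gene classes were summed in each embryo. Cytosolic ribosomal proteins took the largest share, with 3.07% of counts in WT5, 2.76% in WT15, 3.66% in WT16, 2.95% in WT41 and 3.17% in WT43. Per length, the same genes held 7.40% ± 0.607 of TPM, and 33 genes with ribosomal protein names were among the 100 highest. Of the class, 82 of 86 members reached a CPM of 1 in every embryo, led by Rplp1 at 4529 ± 420, Rps15 at 3182 ± 297 and Rpl4 at 2597 ± 121 TPM. Translation factors followed with 2.31% ± 0.106 of counts, most of it from Eef1a1, Eef2 and the translation regulator Eif4g2 (2535 ± 76.8 CPM).

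The cytoskeleton of axons and migrating cells came next. Microtubule-associated and growth cone proteins held 1.89% ± 0.0929 of counts, all 29 of them at a CPM of 1 or more in every embryo. After Marcksl1 the highest were stathmin (Stmn1, 2004 ± 146 TPM), which takes up tubulin dimers, and Basp1 (1513 ± 80.2 TPM), a membrane protein of growing axons. Gap43, the classic growth cone protein, had 1055 ± 77.8 TPM. Tubulins held 1.23% ± 0.101 of counts, and the core actin genes, led by Tmsb4x, Actb and cofilin (Cfl1, 1858 ± 109 TPM), held 0.913% ± 0.0737.

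Within the tubulins the levels differed widely by isotype. Tuba1a stood 575-fold above Tuba4a, an alpha-tubulin of mature tissues, at 4736 against 8.24 TPM. Tubb2b stood 13.8-fold above Tubb4a at 6299 against 456 TPM. The ratios ranged from 531 to 624 and from 12.7 to 14.4 over the embryos. Tuba1a shared 72.9% of its 50-base words with other annotated genes, most of them with Tuba1c, and 26.2% of its exonic bases are overlapped by another gene. Tubb2b shared 39.3%, most of it with Tubb2a, whereas Tubb3 shared none, so the levels of the first 2 are less certain.

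Mitochondrially encoded genes held 1.84% ± 0.177 of counts and 5.80% ± 0.503 of TPM. WT5 had the smallest share of counts, 1.55%, against 1.82% to 1.99% in the other embryos. Only part of the mitochondrial messenger RNA was represented. mt-Co3, mt-Nd3 and mt-Nd4l were listed at 0 in every embryo and mt-Co2, mt-Atp6 and mt-Atp8 at 1 count in all, although every mitochondrion uses these genes. mt-Co2, mt-Co3, mt-Atp6, mt-Nd3 and mt-Nd4l shared 98.0% to 100% of their 50-base words with annotated nuclear copies on chromosome 1, where those copies stood at a mean of 0.315 CPM or less. mt-Cytb and mt-Nd1, with none of their words shared, were among the highest genes. mt-Co1 and mt-Nd4, which were also among the highest, shared 51.1% and 62.2%, so part of each was unshared. mt-Atp8 had no word in common with another annotated transcript, and copies outside the annotation were not searched. How reads with several alignments were counted was not stated, and its part in these zeros was not tested. The class sum is therefore incomplete.

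Nuclear subunits of oxidative phosphorylation held 0.777% ± 0.0708 of counts, with 79 of 84 at a CPM of 1 in every embryo and Cox6b1 of complex IV (929 ± 63.2 TPM) and Atp5b of the ATP synthase (895 ± 35.2 TPM) highest. Glycolysis and lactate dehydrogenase held 0.382% ± 0.0216, led by pyruvate kinase (Pkm, 762 ± 70.8 TPM) and Gapdh (515 ± 35.0 TPM). Of the lactate dehydrogenase subunits, Ldha exceeded Ldhb in all 5 embryos, at 508 ± 32.3 against 438 ± 27.3 TPM. Hexokinase 1 (Hk1) exceeded Hk2 in all 5, at 62.3 against 22.7 TPM.

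RNA-binding proteins and chaperones were abundant. The hnRNP proteins, which coat nascent RNA, held 1.16% ± 0.0886 of counts, with Hnrnpa1 at 1929 ± 131 TPM. Chaperones held 1.30% ± 0.0511, with Hsp90ab1 at 3256 ± 248 TPM, and proteasome subunits 0.470% ± 0.0417. The Zfp zinc finger genes held 1.57% ± 0.0592 through their number, 336 of 392 reaching a CPM of 1 in every embryo at a median of 18.4 TPM. Sox transcription factors held 0.381% ± 0.0314, most of it from Sox4 (1043 ± 68.6 TPM) and Sox11 (768 ± 88.9 TPM), which act in differentiating neurons. For Sox4, 54.6% of the exonic bases are overlapped by another gene.

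At the other end of the ranking were genes of other tissues. Of 1103 olfactory receptor genes, 933 had no count in any embryo and only Olfr77 reached a mean CPM of 1 (1.02 ± 0.176 CPM). Of 350 vomeronasal receptor genes, 292 were at 0. Of the 39 Hox genes, which pattern the hindbrain and spinal cord but not the forebrain, 28 had no count, 36 stayed under 3 counts in every embryo, and the highest, Hoxb9, had 0.0879 ± 0.0287 CPM. Of 17 midbrain and hindbrain patterning genes and of 11 pituitary genes, none reached a CPM of 1 in every embryo, with Fgf8 (0.771 CPM) and Pax5 (0.881 CPM) the nearest among the first.

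**Figure D2:**
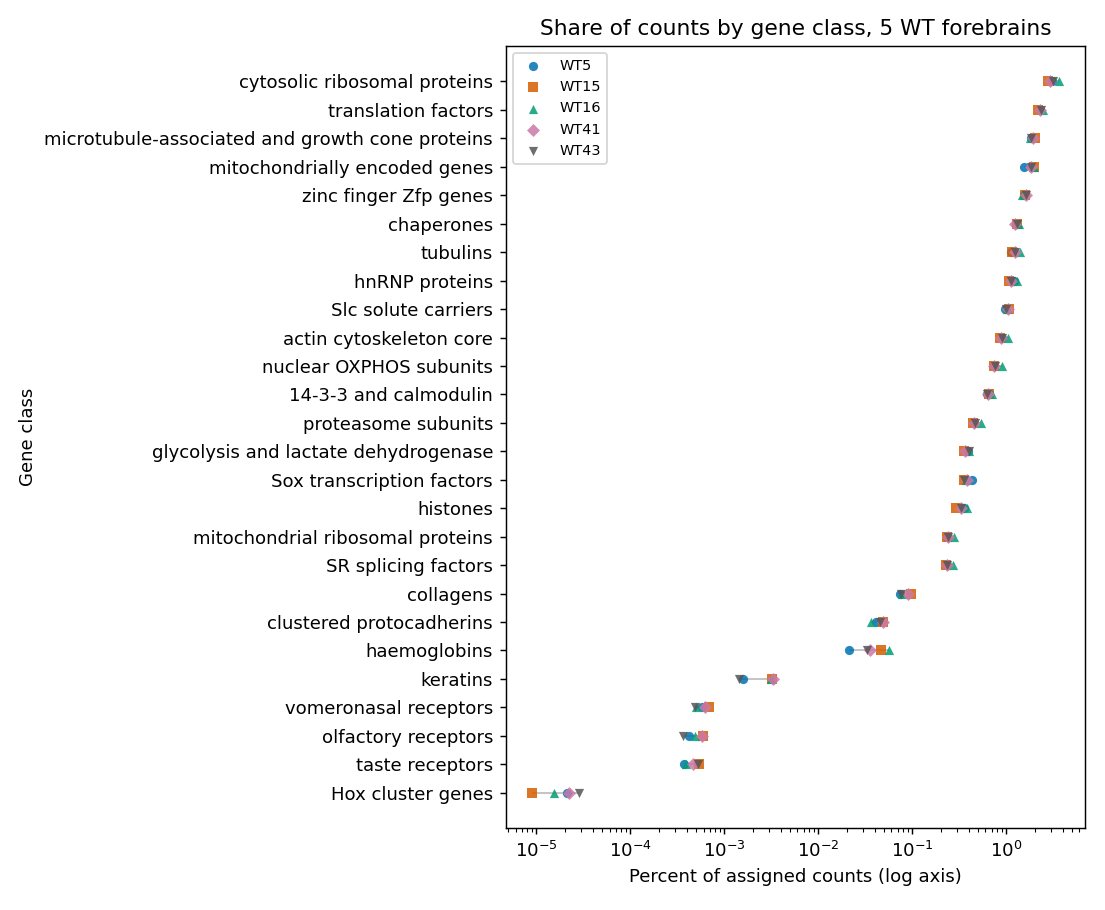
Percent of assigned counts (log axis) held by each of 26 gene classes, with 1 point per WT embryo and a grey line over their range. Ribosomal proteins lead with 2.76% to 3.66%, and the Hox genes are lowest.

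The cell-lineage markers, in lists chosen with earlier results of these data known, had their highest medians in the pan-neuronal, intermediate progenitor and radial glia lists. The 16 pan-neuronal genes summed to 8855 ± 621 CPM and had a median of 226 TPM, led by Tubb3, Gap43 and Stmn2 (586 ± 69.4 TPM), a stathmin of growing axons. The 20 radial glia genes summed to 5246 ± 242 CPM with a median of 141 TPM. Fabp7, the brain lipid-binding protein of radial glia (chr10:57784881-57788450, plus strand), had 1962 ± 216 TPM, and the intermediate filament vimentin (Vim) had 842 ± 98.7 TPM. Sums of CPM count long genes more than short ones, so the lists are set against each other by their median TPM. In bulk tissue, fewer cells of a type and less RNA per cell cannot be told apart.

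Several markers of young neurons stood above those of mature ones. Doublecortin (Dcx), which binds microtubules in migrating neurons, had 460 ± 75.9 TPM against 45.1 ± 6.40 TPM for Rbfox3, the NeuN antigen of mature neurons. Its lead over Rbfox3 was between 7.97-fold and 12-fold in the 5 embryos. Alpha-internexin (Ina, 548 ± 59.4 TPM) stood far above the neurofilament heavy chain Nefh (1.74 ± 0.397 TPM), a filament of mature axons. The embryonic sodium channel Scn3a was 8.79-fold above Scn1a per length. By contrast, of the synaptic Dlg genes, Dlg3 was below Dlg4 in all 5 embryos, at 64.3 ± 3.27 against 72.6 ± 6.94 TPM.

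Receptor subunits known from the embryo stood above those known from the adult. Grin2b, the early NMDA receptor subunit, had 20.5 ± 6.08 TPM and Grin2a 0.516 ± 0.284 TPM. Glra2, the embryonic glycine receptor subunit, had 78.1 ± 10.2 TPM while Glra1 had 0.0275 ± 0.0161 TPM. The chloride importer Slc12a2 exceeded the exporter Slc12a5, 41.9 ± 4.26 against 10.2 ± 3.95 TPM, in all 5 embryos. The vesicular glutamate transporter Slc17a6 exceeded Slc17a7 by 1.94-fold to 2.43-fold. Ptbp2, a splicing regulator of neurons, and Ptbp1, its counterpart in progenitors, stood at 191 ± 4.60 and 184 ± 21 TPM, and the first was higher in 3 of 5 embryos.

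All genes on the deep-layer and upper-layer lists of cortical neurons reached a CPM of 1 in every embryo. Neurod6, a transcription factor of cortical excitatory neurons that was named after its values were seen, was number 45 of the ranking at 1581 ± 233 TPM. Among deep-layer genes, Fezf2, which specifies neurons that project out of the cortex, had 255 ± 26.8 TPM, Tbr1 154 ± 25.2 TPM and Bcl11b 150 ± 18.1 TPM. The upper-layer list was led by Ptn (363 ± 30.1 TPM), Lhx2 (333 ± 68.5 TPM) and Pou3f3 (226 ± 20.4 TPM), none of which is restricted to upper-layer neurons. Cux1 and Cux2 stood at 30.1 and 23.9 TPM.

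Intermediate progenitors were seen in Eomes (318 ± 31.1 TPM) and in the proneural genes Neurog2 (313 ± 88.3 TPM) and Neurod1 (303 ± 22.3 TPM), with a list median of 157 TPM. The 18 mitotic genes were all at a CPM of 1 or more in every embryo, and Top2a, which untangles chromosomes, had 170 ± 27.2 TPM and Mki67 145 ± 35.9 TPM. Their sum was 2157 CPM in WT5, 1525 in WT15, 1643 in WT16, 1595 in WT41 and 1845 in WT43. WT5 was highest and WT15 lowest. Reln, made by Cajal-Retzius cells at the surface of the cortex, had 129 ± 29.1 TPM.

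The labelled cell type was not borne out by genes that define mature astrocytes. Of 20 astrocyte markers, 18 had a CPM of at least 1 in every embryo, and the list had a median of 38.7 TPM. Cst3 had 525 ± 43.9 TPM, glutamine synthetase (Glul) 232 ± 12.6 TPM, Aldoc 229 ± 21.1 TPM and Sox9, which is also on the radial glia list, 81.5 ± 29.8 TPM. The astrocyte filament gene Gfap had 8.11 ± 2.59 TPM, 104-fold below Vim. The water channel Aqp4 had 0.945 ± 0.220 TPM, S100b 0.394 ± 0.112 TPM and the connexin gene Gjb6 0.150 ± 0.129 TPM. Of the glutamate transporters, Slc1a3, which radial glia already express, exceeded Slc1a2 by 2.28-fold to 5.08-fold. Slc25a18, which carries glutamate into mitochondria, had 6.96 ± 1.66 TPM. The samples are therefore called forebrain here and not astrocytes.

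Other glial and vascular lineages were thin. The 18 oligodendrocyte lineage genes had a median of 3.44 TPM, with Olig1 (23.2 ± 6.67 TPM) and Olig2 (18.8 ± 10.1 TPM) highest. The myelin genes Mobp and Opalin averaged 0.0577 and 0.00449 CPM. The 18 microglia and macrophage genes had a median of 5.22 TPM, with the complement gene C1qb at 24.9 ± 1.95 TPM. The endothelial median was 12.4 TPM, with the glucose transporter Slc2a1 at 82.9 ± 2.61 TPM and the tight junction gene Cldn5 at 67.7 ± 9.93 TPM. Mural cells were seen in Rgs5 (44.3 ± 7.48 TPM).

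**Figure D3:**
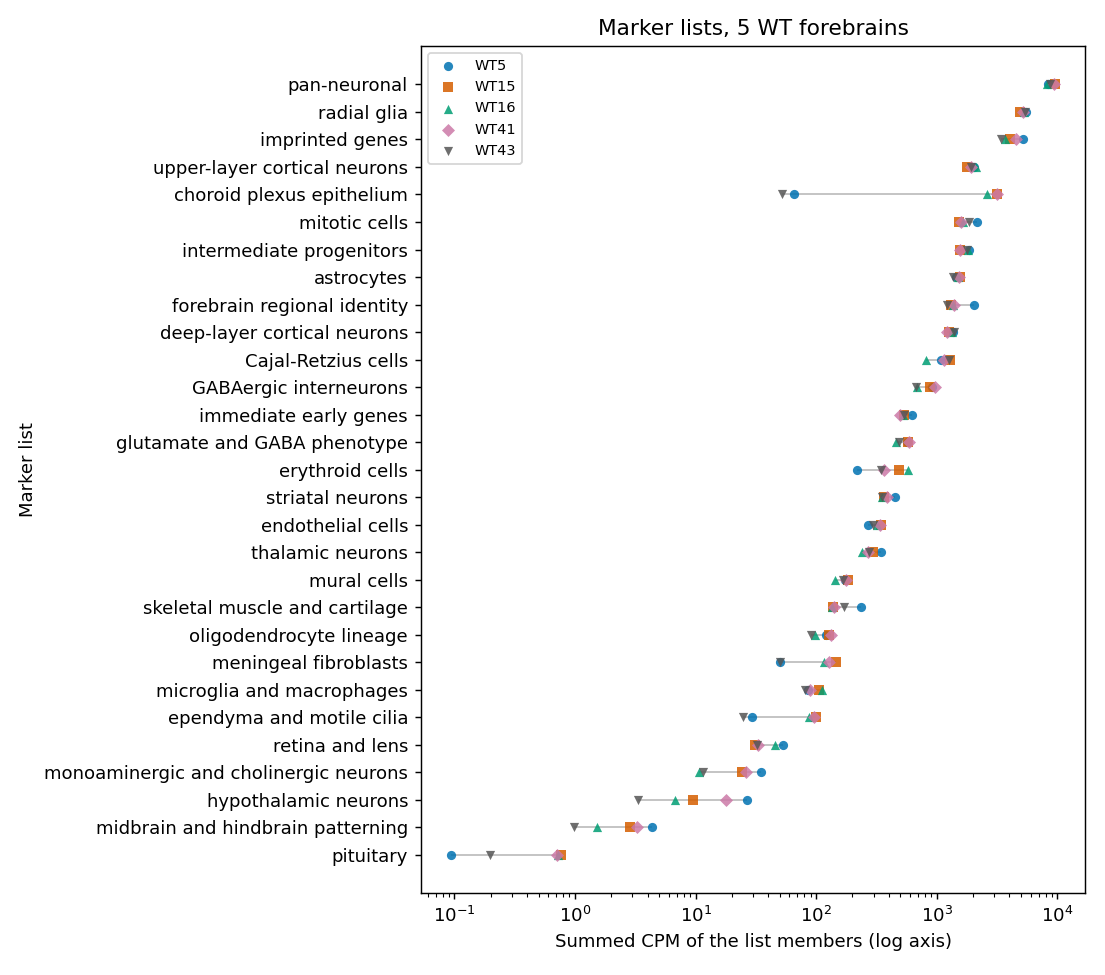
Summed CPM of the members of each marker list (log axis), with 1 point per WT embryo and a grey line over their range. The pan-neuronal list runs from 8273 to 9607 CPM, and the choroid plexus list runs from 52.2 to 3183 CPM.

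How far the embryos differed was measured over the 14383 genes with a mean CPM of at least 1. The median coefficient of variation (CV, the SD as a percentage of the mean) was 10.7%, whereas counting error alone would give a median of 2.66%. The CV was under 10% for 6456 genes and under 20% for 11844. The common biological coefficient of variation of edgeR, which removes counting error, was 18.0%, and the median over genes was 13.5%. In 1310 genes the highest embryo was at least 2-fold the lowest, which is 9.11% of the genes tested. Such genes are called variable here. Without WT5 the count was 918, the lowest when 1 embryo was left out, and without WT41 it was 1182, the highest. The choice of the highest and the lowest of 5 embryos makes this count sensitive to single samples, and between the second highest and the second lowest embryo 378 genes passed 2-fold.

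The embryos fell along few axes. The first principal component of log2(CPM + 1) held 55.1% of the variance and the second 24.9%. WT5 (28.7) and WT43 (19.8) had positive scores on the first, and WT15 (−18.1), WT16 (−16.4) and WT41 (−14) negative ones. On the second, WT16 stood at 23.5 and WT15 and WT41 at −11.8 and −13.1. Of the variable genes, 558 (42.6%) had WT15, WT16 and WT41 as their 3 highest embryos, and 267 (20.4%) had WT5, WT15 and WT41. WT15 and WT41 were the closest pair, with 27 of the 14383 genes past 2-fold in CPM + 1, and WT5 and WT16 the most distant with 441.

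**Figure D4:**
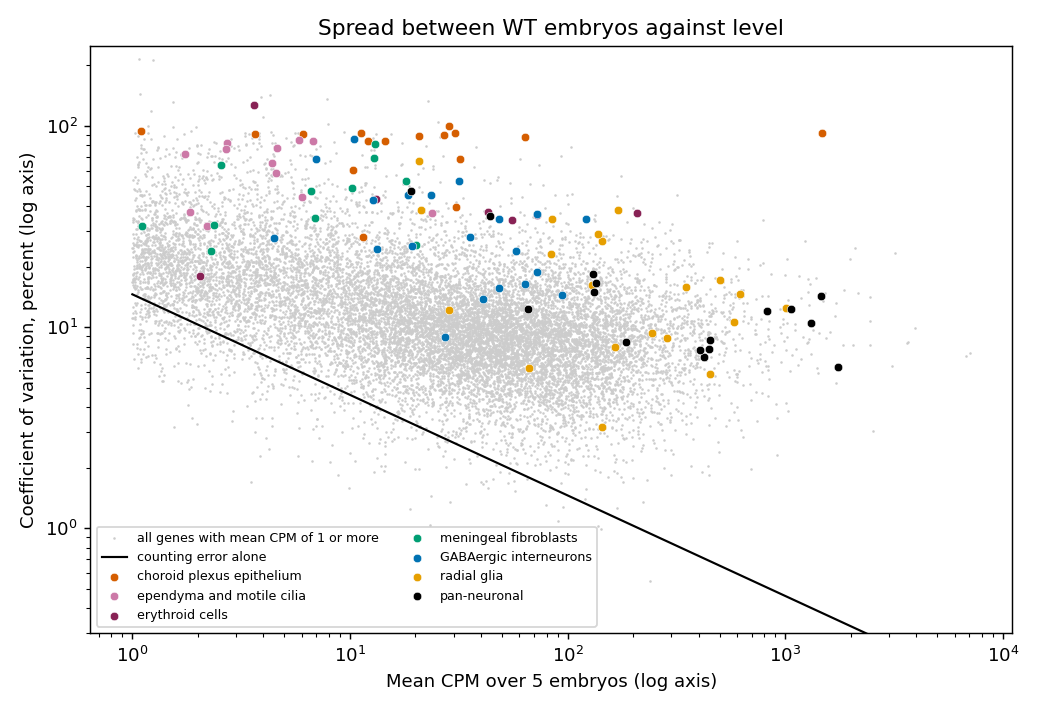
Coefficient of variation over the 5 WT embryos (percent, log axis) against mean CPM (log axis) for 14383 genes (grey), with members of 7 marker lists in colour and the expectation from counting error as a line. Choroid plexus genes lie above the grey cloud, 11 of them among the 100 highest CVs at a mean CPM of at least 10, and most pan-neuronal genes lie within it.

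The choroid plexus list differed most. Its 18 genes summed to 65.8 CPM in WT5, 3145 in WT15, 2594 in WT16, 3183 in WT41 and 52.2 in WT43, and 16 of the 17 tested members were variable, beside 9.11% of all genes tested. Without Ttr, which held most of the sum in WT15, WT16 and WT41, the other 17 genes had 65.1, 572, 429, 526 and 50.1 CPM in that order, so the gap between the embryos was smaller but of the same direction. Ttr alone had 0.75 CPM (32 counts) in WT5, 2573 in WT15, 2164 in WT16, 2657 in WT41 and 2.12 CPM (97 counts) in WT43. It ranked between 5 and 13435 by TPM over the embryos, so its rank of 9 by the mean is that of an average over very unlike values. WT15, WT16 and WT41 were high and WT5 and WT43 low for each of the 16 variable genes but Otx2, which had 32.0, 40.5, 29.5, 41.2 and 11.1 CPM in the same order of embryos. Otx2 also acts outside the choroid plexus. Lmx1a did not reach 2-fold, at 7.72 to 14.9 CPM, and Prlr stayed under a mean CPM of 1.

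Of the 20 genes with the highest CV among those with a mean CPM of at least 10, 9 were on the choroid plexus list. They included the potassium channel subunit Kcne2, the water channel Aqp1 and the folate receptor Folr1. Kcne2 had 0.258, 57.4, 43.9, 50.9 and 0.174 CPM in WT5, WT15, WT16, WT41 and WT43. Aqp1 had 0.844, 49.3, 36.1, 48.6 and 0.763 CPM. The serotonin receptor Htr2c, named after its values were seen, followed the same order with 2.98, 41, 28.1, 35.1 and 4.17 CPM. Cldn1, Col8a2, Wfikkn2 and Aebp1, which were on no list, had CVs of 87.7% to 91.5% and were high in the same 3 embryos.

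Genes of motile cilia had a like order of embryos. All 12 tested members of the ependyma and cilia list were variable, beside 9.11% of all genes tested. The sum of the list was 29.4 CPM in WT5, 99.99 in WT15, 86.6 in WT16, 95.8 in WT41 and 24.7 in WT43. Foxj1, the master regulator of motile cilia, had 15, 32.3, 29.7, 28.7 and 13.7 CPM, whereas Dnah5, a dynein heavy chain, was lowest in WT16. Ccdc153 and Tmem212 had no count. Meningeal fibroblast genes had a narrower range in the same direction. Their sum was 50.5, 145, 116, 128 and 50.5 CPM in WT5, WT15, WT16, WT41 and WT43. Of 11 tested members 10 were variable, beside the same share of all genes, and of these Crabp2 was highest in WT5. Over all genes the variable share was 29.9% at a mean CPM of 1 to 3 and 18.0% at 3 to 10. Ogn, which codes for a small proteoglycan of connective tissue, had 3.05, 23.3, 14.9, 22.7 and 1.07 CPM. How much of each tissue was dissected with the forebrain was not given, and its part in these levels was not tested.

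**Figure D5:**
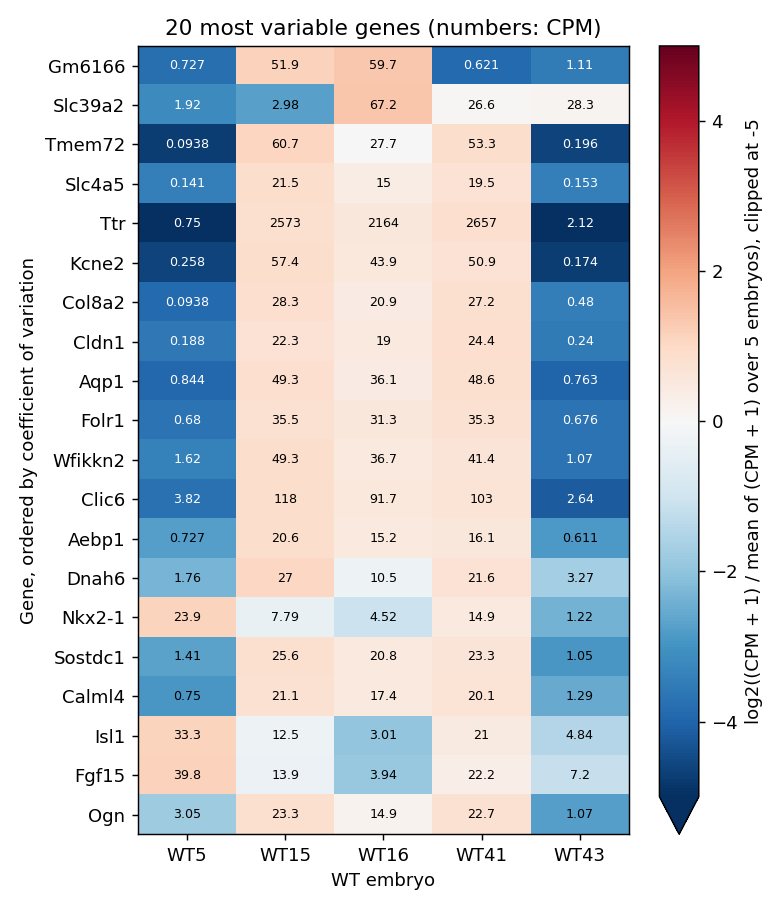
The 20 genes with the highest coefficient of variation, 1 row each, in the 5 WT embryos. Colour is log2 of (CPM + 1) over its mean in the 5 embryos, clipped at −5, and each cell holds the CPM. Most rows are highest in WT15, WT16 and WT41 together, while Nkx2-1, Isl1 and Fgf15 are highest in WT5 and WT41.

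A second pattern held genes of the ventral and midline forebrain. Nkx2-1 (chr12:56531958-56536908, minus strand), which specifies the medial ganglionic eminence and hypothalamus, had 23.9 CPM in WT5, 7.79 in WT15, 4.52 in WT16, 14.9 in WT41 and 1.22 in WT43. Isl1, a factor of striatal and hypothalamic neurons, had 33.3, 12.5, 3.01, 21 and 4.84 CPM in that order. Six3, needed for anterior forebrain identity, had 23.7, 8.77, 4.52, 15.5 and 4.49 CPM. For these 3 genes WT5 and WT41 were the highest and WT16 and WT43 the lowest embryos.

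The GABAergic list had 12 variable members of 20, beside 9.11% of all genes tested and 3.38% of those with a mean CPM of at least 10. Dlx1, Dlx2, Dlx5 and Dlx6, which drive interneuron fate, were all variable, and Dlx2 had 59.3 CPM in WT5, 29.4 in WT15, 17.6 in WT16, 34.4 in WT41 and 18.4 in WT43. Gad1, which makes GABA, had 95.3, 82.9, 42.7, 96.3 and 46.1 CPM. Lhx6 (38.0 to 57.3 CPM) and Cxcr4 (70.5 to 103 CPM), genes of interneurons that are already migrating, were not variable and were lowest in WT5. Sst and Npy, which mark later interneuron subtypes, were also lowest in WT5, at 8.02 and 2.37 CPM against 12.4 to 16.2 and 4.44 to 5.49 CPM in the other embryos. The list as a whole, at 669 CPM in WT43 and 961 in WT41, thus joined genes with different orders of embryos.

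WT5 stood apart in further genes, some of them with the order of the second pattern. Zic1, a factor of the dorsal and septal midline, had 544 CPM in WT5, 300 in WT15, 208 in WT16, 364 in WT41 and 182 in WT43. WT5 and WT41 were thus its highest and WT16 and WT43 its lowest embryos, as for Nkx2-1. The list of forebrain regional identity genes summed to 2052 CPM in WT5 and 1226 to 1380 CPM in the others. That list includes Zic1, Nkx2-1, Six3 and Dlx2, so its sum is not separate from the second pattern. Hes5, the Notch target that keeps progenitors undifferentiated, had 45.5 CPM in WT5, 13.7 in WT15, 16.6 in WT16, 13.7 in WT41 and 14 in WT43. Sox2 had 208 CPM in WT5 against 112 to 133 and Sox9 137 against 68.8 to 75.7. The radial glia list as a whole did not share this order, since its sum was 5457 CPM in WT5, 4856 in WT15, 5307 in WT16, 5189 in WT41 and 5420 in WT43. Its leading gene per length, Fabp7, was lowest in WT5 at 515 CPM against 592 to 764 CPM. In the same embryo the embryonic globin Hbb-y had 11.8 CPM against 1.17 to 2.07 CPM, and the adult beta-globin Hbb-bs had 101 CPM against 177 to 300 CPM. Fos, an immediate early gene, had 5.02 CPM against 1.26 to 1.41 CPM, and Arrdc3, named after its values were seen, 353 against 126 to 140 CPM. Neuronal genes had no single order. Pou3f1, an upper-layer factor, was lowest in WT5 at 9.73 CPM against 16.0 to 29.4 CPM, and so was Snap25, a protein of the synaptic release machinery, at 98.2 against 134 to 155 CPM. Rbfox3 was highest there at 80.1 against 60.5 to 65.5 CPM. The embryonic day of WT5 within the interval was not given.

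WT16 was distinguished by gene length. Protein-coding genes were split into quartiles of exonic length, and each embryo was set against the mean of the other embryos. The median deviation of log2(CPM + 1) in WT16 was 0.19 for the shortest quartile, 0.08 and −0.02 for the middle quartiles and −0.18 for the longest. In the other embryos it lay between −0.07 and 0.07 in each quartile. The long non-coding RNA Xist was lowest there, at 745 CPM against 1044 to 1505 CPM. Several functional classes were highest in WT16, among them nuclear oxidative phosphorylation subunits at 0.902% of counts against 0.734% to 0.764% in the other embryos. Whether RNA quality differed between embryos was not given and was not tested.

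Haemoglobin transcripts varied with all 5 tested globins past 2-fold, beside 9.11% of all genes tested. Hbb-bs (1066 ± 369 TPM) was the highest and number 77 of the ranking. Its CPM were 101 in WT5, 262 in WT15, 300 in WT16, 199 in WT41 and 177 in WT43. Alas2, the enzyme of erythroid haem synthesis, had 5.39, 18.6, 18.9, 12.2 and 10.8 CPM in that order, so both were highest in WT16 and WT15 and lowest in WT5. Hbb-bs shared 65.8% of its words with Hbb-bt and Hba-a1 67.5% with Hba-a2, so the split within each pair is uncertain.

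Among the imprinted genes, 24 of 26 reached a CPM of 1 in every embryo and 7 were variable, beside 9.11% of all genes tested. Ndn had 367 ± 69 TPM and Snrpn 313 ± 22.7 TPM. Magel2 had 34.3 CPM in WT5, 14 in WT15, 6.57 in WT16, 20.5 in WT41 and 10 in WT43. Peg10 had 151, 72.3, 54.0, 100.2 and 60.3 CPM in that order. Both were highest in WT5 and WT41, as Nnat was.

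Some variable genes were copies of others. The processed pseudogene Gm8730 shared 39.4% of its words with Rplp0, a protein of the ribosomal stalk, and had 79.2 CPM in WT5, 69.8 in WT15, 1.22 in WT16, 149 in WT41 and 166 in WT43. Rplp0 had 819, 734, 1228, 554 and 602 CPM, highest in WT16, where the copy was lowest. The sum of both had a CV of 23.6% against 34.0% for Rplp0 alone. Rps3a3 had 0.376 CPM in WT16 and 57.2 to 61.1 CPM elsewhere, while Rps3a1 had 678 CPM in WT16 and 385 to 427 CPM elsewhere. Gm6166, with the highest CV (133%) among genes at a mean CPM of at least 10, shared 51.1% of its words with Fabp5, and had 0.727, 51.9, 59.7, 0.621 and 1.11 CPM. Of 83 cytosolic ribosomal protein genes checked, 66 shared at least 10% of their words with another annotated gene, and among the 100 highest genes 54 did. Values of single members of such families are uncertain, since reads may have been split between them.

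At the other extreme, 1301 genes had a CV under 5%. Among those with a mean CPM of at least 50, some of the lowest CVs belonged to the microtubule-affinity kinase Mark1 (0.740%), the anaphase-promoting complex subunit Cdc23 (0.985%), the pyruvate dehydrogenase subunit Pdha1 (1.03%) and the mitochondrial processing peptidase Pmpca (1.09%). Nudcd3, Gabpa, Osbp, Phf6, Man1b1, Gmeb1, Khdc4, Prkag2, Ttc9c and Mbtd1 followed, up to 1.70%. For Mark1 the CV lies under the expectation from counting, which is 1.35%. The same holds, each against its own expectation, for Cdc23, Pdha1, Pmpca, Gabpa, Osbp, Gmeb1 and Prkag2. Nudcd3, Phf6, Man1b1, Khdc4, Ttc9c and Mbtd1 lie above theirs. All of these genes were selected for low values.

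Leaving out rRNA, non-coding RNA was led by Xist (1228 ± 327 CPM), Malat1 (737 ± 102 CPM), a nuclear RNA, and Miat (639 ± 97.7 CPM), of which 30.4% of bases are overlapped. C130071C03Rik (599 ± 23.9 CPM), Mir100hg (376 ± 19.7 CPM) and Oip5os1 (240 ± 24.8 CPM) followed. Cct6a, a chaperonin subunit, appears among them at 296 ± 21.4 CPM only because the annotation gives it no coding type. Of the 278 lincRNAs tested, 50 were variable (18.0%), against 1086 of 13084 protein-coding genes (8.30%). The share depends on level, since over all genes it was 29.9% at a mean CPM of 1 to 3, 18.0% at 3 to 10 and 2.12% at 30 to 100, and the biotypes were not matched for level.

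Npas3, the gene for which these embryos were WT (ENSMUSG00000021010, chr12:53248677-54072175, plus strand), codes for a bHLH-PAS transcription factor. It had 39.8 CPM in WT5, 35.9 in WT15, 30.2 in WT16, 38.6 in WT41 and 36.6 in WT43. The mean was 36.2 ± 3.72 CPM or 24 ± 3.16 TPM, rank 7320, with a CV of 10.3% beside a median of 10.7% over all genes tested.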

How the data were processed

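Forebrain RNA of 9 female embryos was sequenced by the authors after poly(A) capture and TruSeq library preparation, with one read of each pair used. The 5 Npas3+/+ columns were analysed here and the other 4 were not. The deposited unit is counts per gene, not normalized. The submitters' processing notes name STAR 2.7.9a, featureCounts (Subread), FastQC and GRCm38.p6. Strand and the treatment of reads with several alignments were not stated, so overlapping, antisense and copied genes are uncertain.

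CPM used the total of each column, which was 42640218 to 62830060 counts. TPM used exon unions of GENCODE M21, whereas the authors counted on M25, and M21 held 55141 of the 55401 genes. Variability was described over genes with a mean CPM of at least 1, by the CV, the ratio of the highest to the lowest embryo, and the biological coefficient of variation of edgeR 4.0.16 (TMM, intercept only) in R 4.3.3, with DESeq2 1.42.0 as an alternative. Other steps used Python 3.11.15, pandas 2.3.3 and numpy 2.4.6. The dispersion step was tested on simulated data. No groups were compared. Dixon's criterion for 5 values (0.71) was applied to 87 sets to find single embryos far from the others. Floors of 3 counts cover counting error only.

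Named genes were the 25 highest by TPM and 10 by CPM, list and pair members (the highest, those at 0 and those past 2-fold), the 20 highest CVs at a mean CPM of at least 10, the 15 lowest at 50 or more, the 10 highest non-coding genes, sex-linked genes, Npas3 and copies. The members and lists were chosen with earlier results of these data known. Promoter sequences came from RefSeq. Some genes that this rule names are not reported here. Whether the embryos shared litters was not given.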

Additional observations from a re-analysis of the deposited data

Results flagged for a closer look

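Among 87 sets of 5 values, 7 had 1 embryo far from the other 4, where chance alone would give about 4.35, or 1 in 20. All sets come from the same 5 embryos and are not independent, so the 7 are not separate findings. Most of them were in WT16, which was also higher in short genes. The sets were not matched for gene length, and its part in these values was not tested. WT16 had 0.277% of counts in mitochondrial ribosomal proteins against 0.233% to 0.243% in the others. It had 0.902% in nuclear oxidative phosphorylation subunits against 0.734% to 0.764%, and 1.04% in the actin cytoskeleton core against 0.860% to 0.893%. SR splicing factors stood at 0.269% in WT16 against 0.228% to 0.236%, and proteasome subunits at 0.543% against 0.439% to 0.462%. In WT5 the forebrain regional identity genes summed to 2052 CPM against 1226 to 1380 CPM, and mt-Nd2 had 927 CPM against 1337 to 1472 CPM.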

How the results depend on the processing

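No paired analysis was possible because genotypes were not compared and the WT embryos carry different numbers. Of the genes in the table, 21678 were found with 1 count or more in every embryo in place of 13639 at a CPM of 1. By share of TPM in place of counts, cytosolic ribosomal proteins held 7.40%, mitochondrially encoded genes 5.80%, nuclear oxidative phosphorylation subunits 1.84%, tubulins 2.14% and microtubule-associated and growth cone proteins 1.71%. Without their highest member, the sums were 4238 CPM for radial glia, 7110 CPM for pan-neuronal genes and 1290 CPM for astrocytes, and the choroid plexus sum fell from 1808 to 328 CPM. The 1310 variable genes became 348 at a mean CPM of at least 10, 4061 without that filter, 3842 at a 1.5-fold ratio and 378 between the second highest and second lowest embryo. Leaving out each embryo gave 918 to 1182, TMM 1320 and DESeq2 size factors 1296. The choroid plexus sum fell by less than its SD of 1614 CPM, which holds the gap between WT5 and WT43 and the other embryos. With so wide an SD this comparison cannot show that the sum was stable, and the mean depended mostly on Ttr. Of the recomputed main values, 86 moved by less than the spread between embryos or, for counts, by less than 1.5 times. The other 13 moved further. Litter, exact age and dissection cannot be told apart from the spread between embryos.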
